A study of Mus musculus with 6 samples.

Results

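The genes described here make cholesterol and fatty acids. They are a list of 34 symbols covering the mevalonate steps, the sterol steps, the SREBP regulators, the supply of acetyl-CoA and NADPH, and the building and desaturation of fatty acid chains, out of 35275 genes in the deposited count files. The list was given as gene names and its rule used no measured value, but the genes were chosen with earlier results of these data known. Each of the 34 was found by symbol, had counts in every library (24 to 10231 per library) and passed the filter on low counts, which kept 13883 genes.

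The libraries came from myeloid cells sorted out of subcutaneous tumours of CT26, a transplantable mouse colon carcinoma line, implanted in the strain BALB/C and allowed to reach 1800 mm3. The 3 sorted fractions were sequenced from each of 2 mice, giving 6 libraries. They were Ly6G-low cells that bound the T1 aptamer, a nucleic acid ligand; Ly6G-high cells that bound it; and Ly6G-high cells that did not. Ly6G is a surface protein of neutrophils and related granulocytic cells. The labels give no age, sex, drug treatment or genetic change for these mice, and no tumour-free animal is among the libraries. Every group has 2 libraries, 1 from each mouse, so each group of cells is known from the same pair of tumours.

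Cholesterol synthesis starts when acetyl-CoA is joined into mevalonate, which is converted to isoprenoid units, then squalene, then lanosterol, and finally trimmed to cholesterol. Fatty acid synthesis starts from the same acetyl-CoA, which acetyl-CoA carboxylase and fatty acid synthase build into saturated chains that elongases and desaturases extend and unsaturate. Transcription of many of these genes is driven by the SREBP factors, which SCAP escorts from the endoplasmic reticulum to the Golgi when sterols are scarce and INSIG proteins hold back when sterols are plentiful. In macrophages, oxysterols also act through the LXR receptors, which raise cholesterol export genes and the transcription of Srebf1.

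The libraries held 23595976 to 28045025 counts, and levels are given as CPM, counts scaled to a common library size with edgeR's TMM factors, which ran from 0.653 to 1.40 and were highest in the Ly6G-low libraries. Ly6g itself was at 0.182 and 0.0289 CPM in the Ly6G-low libraries, 10.05 and 9.38 CPM in the T1-binding and 32.7 and 30.2 CPM in the T1-non-binding Ly6G-high libraries. Markers of the labelled myeloid cells were low in the Ly6G-low libraries: all 8 leukocyte markers were lower there than in either Ly6G-high group, with a summed level of 1002 to 1450 CPM against 8132 to 15930 CPM. Fibroblast markers summed to 1189 and 1456 CPM in the Ly6G-low libraries against 426 to 815 CPM in the others, and 3 of 7 were called higher against Ly6G-high T1-binding cells. Proliferation markers summed to 883 and 892 CPM against 445 to 598 CPM. Epithelial and tumour markers summed to 117 and 133 CPM against 75.6 to 86.4 CPM, with Cldn4 and Cldn7 at or near 0 and Krt19 and Epcam at most 1.26 CPM in every library. Within that list Krt18 was called higher, 2.21-fold against T1-binding cells (edgeR adjusted p = 0.0164), and Cdh1 lower, at 7.96 and 5.14 CPM against 47.5 and 16.9 CPM (4.91-fold, edgeR adjusted p = 0.0305). The part of these cell type differences in the lipid gene results was not tested. In bulk samples such as these, fewer cells of a type and less RNA per cell cannot be told apart.

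Genes of fatty acid chain synthesis held the largest number of higher calls in Ly6G-low T1-binding cells. Against Ly6G-high T1-binding cells, 11 of the 34 genes were higher (32.4%) and 5 lower (14.7%), beside 18.8% and 24.3% of all 13883 tested genes (43% in either direction). Against Ly6G-high T1-non-binding cells, 11 were higher (32.4%) and 4 lower (11.8%), beside 16.1% and 23.8% of all genes (39.8% in either direction). A gene is called here when its edgeR quasi-likelihood p, adjusted by Benjamini-Hochberg over all tested genes, is below 0.05. These comparisons share the Ly6G-low libraries, so their results are given side by side and are not independent of each other. The median log2 fold change of the 34 was 0.41 against T1-binding cells (0.50 in mouse 1, 0.26 in mouse 2) and 0.47 against T1-non-binding cells (0.48 and 0.38), beside 0.03 and 0.09 over all genes. At an unadjusted p below 0.05 there were 23 and 21 of the 34, beside 54% and 52.6% of all genes. CPM did not overlap between the groups for 31 and 28 of the 34, beside 81.2% and 80.2% of all genes. Both Ly6G-low libraries lay above all 4 Ly6G-high libraries for 20 of the 34, beside 36.7% of all genes, and below them for 4 (Pmvk, Mvd, Stard4 and Acss2), beside 32.6%.

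The lower calls depended on the scaling and most calls on single libraries. With library totals in place of TMM factors the median of all genes moved to 0.61 and 0.91, the genes called became 20 higher and 0 lower against T1-binding cells and 28 higher and 1 lower against T1-non-binding cells, and the medians of the 34 were 0.98 and 1.27. Among all genes the split moved from 2604 higher and 3367 lower to 5208 and 2235, and from 2230 and 3298 to 7262 and 1883. Against T1-binding cells, fewer of the 34 and fewer of all genes were called without any single library of the compared groups. The drop was smallest without Ly6G-high T1-binding mouse 2. Without Ly6G-low mouse 1, Ly6G-low mouse 2 and T1-binding mouse 1 the median of the 34 was 0.41, 0.30 and 0.30. Against T1-non-binding cells, fewer of both were called without either Ly6G-low library, Ly6G-high T1-non-binding mouse 1 or either T1-binding library. The drops were smaller for the T1-binding libraries. Without Ly6G-low mouse 1, Ly6G-low mouse 2 and T1-non-binding mouse 1 the median of the 34 was 0.50, 0.39 and 0.36. Me1 and Scd1 in the first comparison, and Stard4 and Acss2 in the second, were called whichever library was left out.

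**Figure D1:**
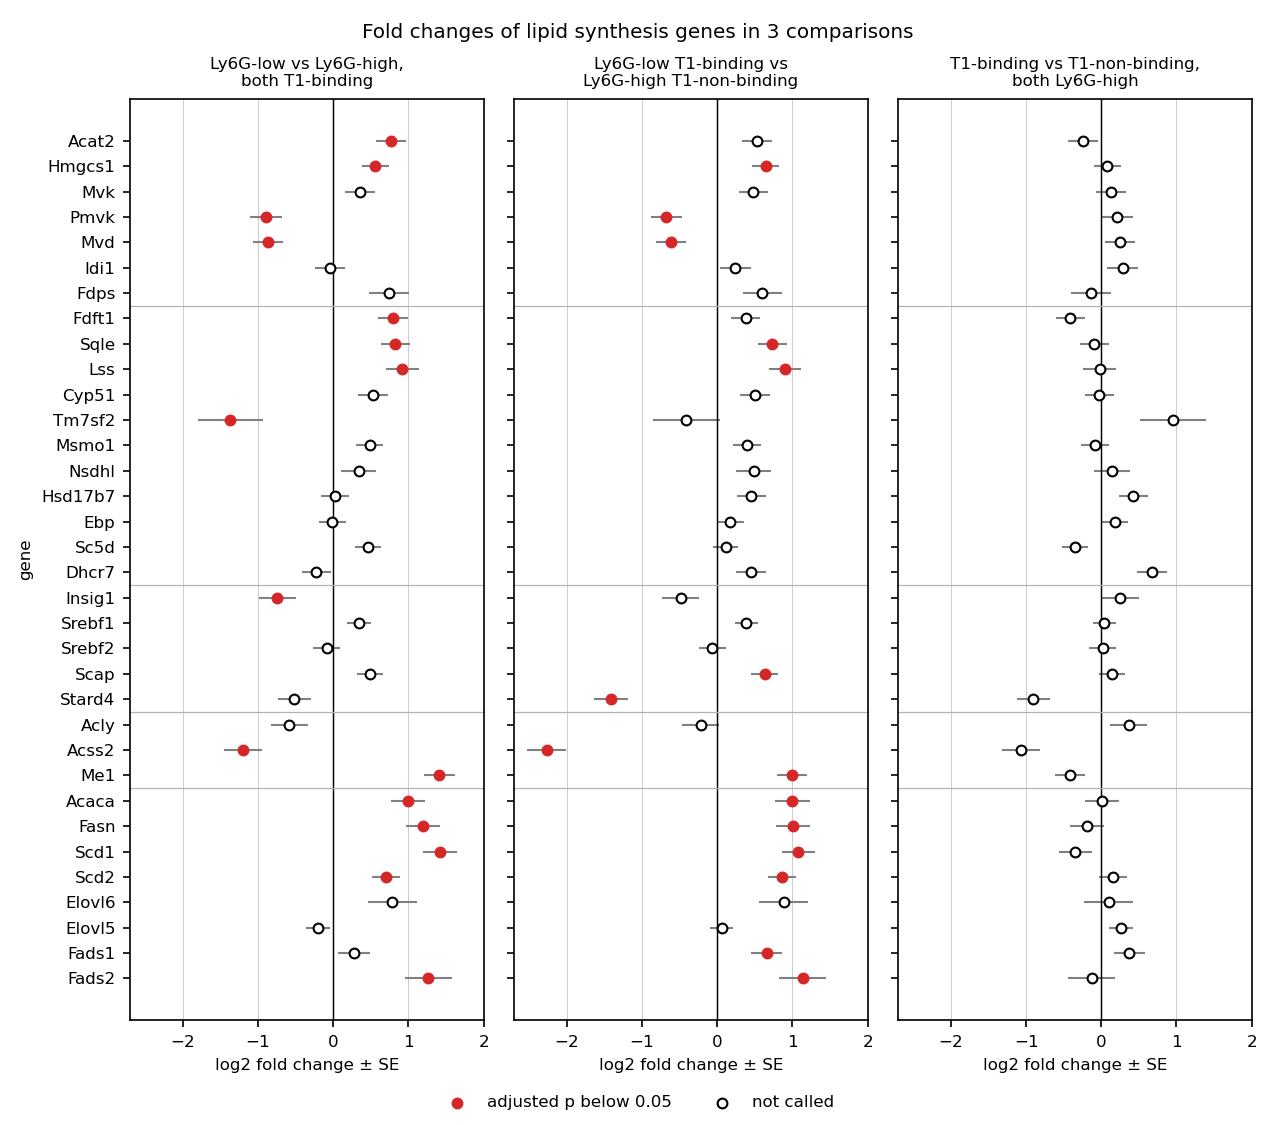
Log2 fold change with its standard error (x axis) of each of the 34 genes (y axis) in the 3 comparisons, filled where the adjusted p was below 0.05. Filled points to the right of 0 include 5 of 8 genes of the fatty acid block at the bottom of the first panel and 6 of 8 in the second, Acss2 lies furthest to the left in the second, and the third panel has no filled point.

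Most genes of fatty acid chain synthesis and desaturation were higher in Ly6G-low cells. Of 8 genes in this group, 5 were called higher against Ly6G-high T1-binding cells, beside 18.8% of all genes. Against T1-non-binding cells, 6 were higher, beside 16.1%. None of the 8 was lower in either comparison, beside 24.3% and 23.8%. Their median log2 fold changes were 0.89 and 0.94, and their levels summed to 905 and 1029 CPM in Ly6G-low cells against 509 to 628 CPM in the 4 Ly6G-high libraries. Scd1, a stearoyl-CoA desaturase that puts the first double bond into saturated chains, had the largest change against T1-binding cells. It was at 167 and 176 CPM in Ly6G-low, 56.1 and 72.1 CPM in Ly6G-high T1-binding and 69.3 and 93.5 CPM in the T1-non-binding Ly6G-high libraries. The Ly6G-low libraries lay above all 4 others. Scd1 was 2.68-fold higher than in T1-binding cells (log2 1.42 ± 0.22 SE, edgeR adjusted p = 0.00453) and 2.11-fold higher than in T1-non-binding cells (log2 1.08 ± 0.22 SE, edgeR adjusted p = 0.0119).

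Fasn, fatty acid synthase, was at 180 and 211 CPM in Ly6G-low cells, 74.8 and 95.7 CPM in the T1-binding Ly6G-high libraries and 84.4 and 110 CPM in T1-non-binding cells. It was 2.29-fold (edgeR adjusted p = 0.00768) and 2.00-fold (edgeR adjusted p = 0.016) higher in Ly6G-low cells. Acaca, acetyl-CoA carboxylase and the step before Fasn, was at 22.3 and 29.9 CPM, 12.5 and 13.7 CPM, and 11.1 and 14.8 CPM in the same order of groups. That was 1.99-fold (edgeR adjusted p = 0.0141) and 2.00-fold (edgeR adjusted p = 0.0166) higher in Ly6G-low cells, and for both genes the Ly6G-low libraries lay above the other 4.

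Fads2, the desaturase that starts the synthesis of long polyunsaturated fatty acids, had the largest change of the group against T1-non-binding cells. It was at 27.1 and 31.1 CPM in Ly6G-low, 9.80 and 14.4 CPM in Ly6G-high T1-binding and 9.51 and 16.8 CPM in T1-non-binding cells. The differences were 2.40-fold (log2 1.26 ± 0.31 SE, edgeR adjusted p = 0.0178) and 2.20-fold (log2 1.14 ± 0.31 SE, edgeR adjusted p = 0.0286). Scd2, a second stearoyl-CoA desaturase, was at 228 and 264 CPM against 156 and 146 CPM (1.63-fold, edgeR adjusted p = 0.022) and 135 and 136 CPM (1.82-fold, edgeR adjusted p = 0.0138). Scd1 and Scd2 are close paralogs and how reads shared between them were counted is not given in the sources used here. Their relatives Scd3 and Scd4 were at most 0.26 CPM in every library.

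The remaining genes of the group differed less. Fads1, the desaturase that acts after Fads2, was at 192 and 222 CPM in Ly6G-low, 151 and 189 CPM in T1-binding and 120 and 142 CPM in T1-non-binding Ly6G-high cells, and was called against the last group alone (1.58-fold, edgeR adjusted p = 0.046). Elovl6, which lengthens palmitate, was at 13.4 and 13.1 CPM against 5.86 and 9.51 CPM and 5.24 and 8.98 CPM and was not called (edgeR adjusted p = 0.0861 and 0.0661). With the mouse as a block in the fit of 6 libraries, Elovl6 was called in both (edgeR adjusted p = 0.0278 and 0.0205). Elovl5, the elongase of polyunsaturated chains, was at 75.4 and 82.2 CPM in Ly6G-low cells, between 87.7 and 93.4 CPM in T1-binding cells and at 75.2 and 76.3 CPM in T1-non-binding cells, and was not called.

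Several of these calls rested on single libraries. Without Ly6G-low mouse 2, Fasn, Acaca, Scd2 and Fads2 lost their call against T1-binding cells, with edgeR adjusted p of 0.0665 to 0.201, and without Ly6G-high T1-binding mouse 1 the same 4 had 0.0571 to 0.102. Scd2 and Fads2 were not called without Ly6G-low mouse 1 (edgeR adjusted p = 0.094 and 0.0613), nor Scd2 without T1-binding mouse 2 (0.15). Against T1-non-binding cells all 6 calls were lost without Ly6G-low mouse 2 (adjusted p of 0.0768 to 0.26), 5 were lost without Ly6G-low mouse 1 (0.066 to 0.146) and 4 without T1-non-binding mouse 1 (0.0649 to 0.167). Fads1 was also lost there without either T1-binding library (edgeR adjusted p = 0.0594 and 0.0747), and with the mouse as a block on the compared groups alone Fads1 and Scd2 had 0.148 and 0.0521 (Fads1 0.0765 without the block).

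**Figure D2:**
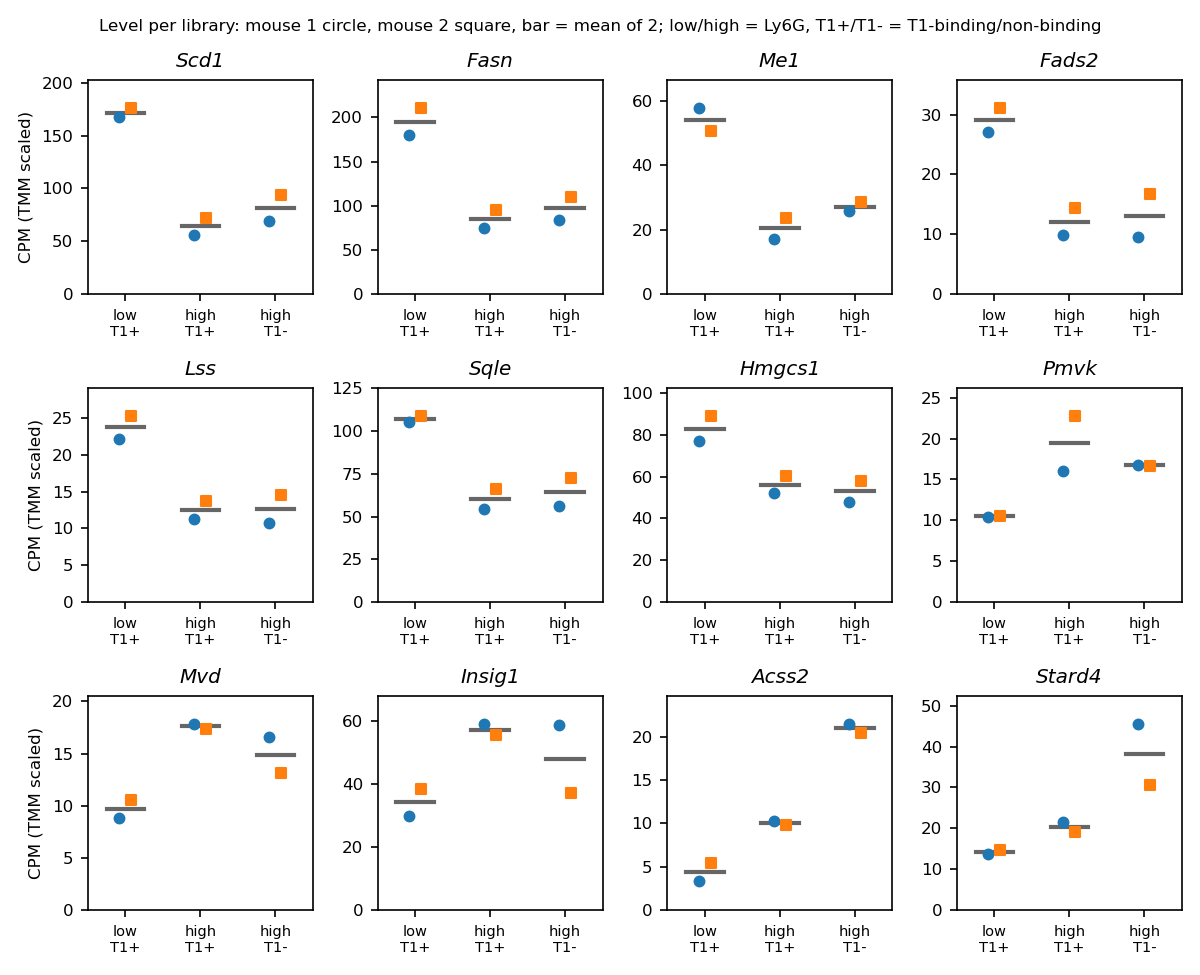
CPM (y axis, from 0) of 12 named genes in each library, by group (x axis); circles are mouse 1, squares mouse 2 and bars the mean of 2 libraries. Scd1, Fasn, Me1, Fads2, Lss, Sqle and Hmgcs1 were highest in the Ly6G-low group, and Acss2 and Stard4 fell in steps from T1-non-binding to T1-binding to Ly6G-low cells.

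In the sterol branch, from squalene to cholesterol, the called genes were higher in Ly6G-low cells with the exception of Tm7sf2. Of 11 genes, 3 were higher and 1 lower against Ly6G-high T1-binding cells, beside 18.8% and 24.3% of all genes. Against T1-non-binding cells, 2 were higher and none lower, beside 16.1% and 23.8%. The 11 genes had median log2 fold changes of 0.46 and 0.45. Summed, they were at 580 and 605 CPM in Ly6G-low cells against 389 to 471 CPM in the other 4 libraries. Lss, lanosterol synthase, which closes the sterol rings, had the largest increase. It was at 22.2 and 25.3 CPM in Ly6G-low, 11.3 and 13.7 CPM in Ly6G-high T1-binding and 10.7 and 14.6 CPM in T1-non-binding cells, 1.89-fold (log2 0.92 ± 0.22 SE, edgeR adjusted p = 0.0156) and 1.87-fold (log2 0.90 ± 0.22 SE, edgeR adjusted p = 0.0199) higher.

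Sqle, squalene epoxidase, which makes the substrate of Lss and is a control point of the sterol branch, was at 105 and 109 CPM in Ly6G-low cells. It was at 54.6 and 66.0 CPM in T1-binding Ly6G-high cells (1.78-fold, edgeR adjusted p = 0.0154) and 56.4 and 72.4 CPM in T1-non-binding cells (1.66-fold, edgeR adjusted p = 0.0264). Fdft1, squalene synthase, which commits isoprenoids to sterols, was at 46.3 and 47.6 CPM against 23.0 and 31.2 CPM in T1-binding cells (1.74-fold, edgeR adjusted p = 0.0176) and 33.9 and 38.2 CPM in T1-non-binding cells, where it was not called. Fdft1 overlaps 774 bases of Ctsb, which was at 1382 and 1754 CPM in Ly6G-low and 3151 to 5085 CPM in the Ly6G-high libraries.

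Tm7sf2, a sterol reductase that acts on an intermediate between lanosterol and cholesterol, ran the other way. It was at 1.49 and 2.14 CPM in Ly6G-low, 3.56 and 5.80 CPM in Ly6G-high T1-binding and 1.55 and 3.19 CPM in T1-non-binding cells, 2.58-fold lower in Ly6G-low than in T1-binding cells (log2 -1.37 ± 0.43 SE, edgeR adjusted p = 0.0415). It was the gene with the fewest counts, and its Ly6G-low libraries overlapped the T1-non-binding ones. The call was lost with library totals (log2 -0.81, edgeR adjusted p = 0.227) and on leaving out either library of either compared group (edgeR adjusted p of 0.0593 to 0.195).

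The other 7 sterol genes were not called in either comparison. Cyp51 (lanosterol demethylase), Msmo1 (methylsterol oxidase) and Nsdhl (sterol dehydrogenase) were highest in both Ly6G-low libraries: Cyp51 was at 91.7 and 112 CPM against 64.4 to 79.0 CPM in the other 4. With the mouse as a block in the fit of 6 libraries Cyp51 was called (edgeR adjusted p = 0.0326 and 0.0392), but not with the block on the compared groups alone (0.0729 and 0.238) or by DESeq2 (0.0839 and 0.127). Msmo1 was at 142 and 137 CPM against 88.0 to 111 CPM, and Nsdhl at 28.0 and 29.6 CPM against 17.5 to 26.9 CPM. Ebp (sterol isomerase), Hsd17b7 (a ketosteroid reductase), Sc5d (sterol desaturase) and Dhcr7, which makes cholesterol in the last step, did not separate Ly6G-low from all other libraries. Without Ly6G-low mouse 2, Lss, Sqle and Fdft1 had edgeR adjusted p of 0.119 to 0.135 against T1-binding cells. Without Ly6G-low mouse 1 they had 0.0617 to 0.0857, and without T1-binding mouse 1 they had 0.0997 to 0.118. Against T1-non-binding cells Lss and Sqle had edgeR adjusted p of 0.0766 to 0.147 when either Ly6G-low library was left out and 0.0877 and 0.107 without T1-non-binding mouse 1, and Sqle had 0.0634 with the mouse as a block on the compared groups alone.

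The early mevalonate genes were split. Of 7, 2 were higher and 2 lower in Ly6G-low than in Ly6G-high T1-binding cells, beside 18.8% and 24.3% of all genes. Against T1-non-binding cells, 1 was higher and 2 lower, beside 16.1% and 23.8%. The medians were 0.35 and 0.48 on the log2 scale. Acat2, the thiolase that joins acetyl-CoA units, was at 28.5 and 33.3 CPM in Ly6G-low, 17.0 and 19.1 CPM in T1-binding and 18.4 and 24.2 CPM in T1-non-binding Ly6G-high cells. It was 1.71-fold higher than in T1-binding cells (log2 0.77 ± 0.20 SE, edgeR adjusted p = 0.0211) and was not called against T1-non-binding cells (edgeR adjusted p = 0.07). There it was called with the mouse as a block in the fit of 6 libraries (edgeR adjusted p = 0.0379), with library totals (0.0107) and without T1-non-binding mouse 2 (0.034), but not with the block on the compared groups alone (0.191). Hmgcs1, the cytosolic HMG-CoA synthase, was at 76.8 and 89.0 CPM against 52.1 and 60.2 CPM (1.48-fold, edgeR adjusted p = 0.0445) and 48.0 and 58.1 CPM (1.56-fold, log2 0.64 ± 0.18 SE, edgeR adjusted p = 0.0326). Fdps, which makes farnesyl diphosphate, was at 110 and 117 CPM against 53.7 to 87.9 CPM in the other 4 libraries, missed the threshold against T1-binding cells (edgeR adjusted p = 0.0588) and was called there with the mouse as a block in the fit of 6 libraries (edgeR adjusted p = 0.0137).

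Pmvk, phosphomevalonate kinase, and Mvd, mevalonate diphosphate decarboxylase, which catalyse consecutive steps, were lower in Ly6G-low cells. Pmvk was at 10.4 and 10.5 CPM in Ly6G-low, 16.0 and 22.8 CPM in T1-binding and 16.8 and 16.7 CPM in T1-non-binding Ly6G-high cells. It was 1.85-fold (log2 -0.89 ± 0.21 SE, edgeR adjusted p = 0.0159) and 1.60-fold lower (log2 -0.68 ± 0.21 SE, edgeR adjusted p = 0.0425). Mvd was at 8.84 and 10.5 CPM against 17.8 and 17.4 CPM (1.82-fold lower, edgeR adjusted p = 0.0147) and 16.6 and 13.1 CPM (1.53-fold lower, edgeR adjusted p = 0.0476). With library totals neither was called against T1-binding cells (log2 -0.33 and -0.28), and the direction turned against T1-non-binding cells (log2 0.15 and 0.24). Mvk and Idi1, the kinase before Pmvk and the isomerase after Mvd, were not called; Mvk was at 15.2 and 15.8 CPM against 10.5 to 13.7 CPM, and Idi1 was between 11.97 and 16.8 CPM in all libraries. Mvd lies wholly within the antisense-strand gene Gm20388, which had no counts in any library.

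Calls in the mevalonate group were held by few libraries. Hmgcs1 had edgeR adjusted p of 0.12 to 0.343 against T1-binding cells when any library of the compared groups was left out, and with the mouse as a block on the compared groups alone 0.056 and, against T1-non-binding cells, 0.106. DESeq2 gave Hmgcs1 an adjusted p of 0.0531 against T1-binding cells, and with the compared groups alone Hmgcs1 and Mvd had edgeR adjusted p of 0.0654 and 0.0533 against T1-non-binding cells. Acat2 had 0.0695 to 0.193 on leaving out any library of the compared groups. Against T1-non-binding cells Hmgcs1, Pmvk and Mvd had 0.0996 to 0.248 without a Ly6G-low library, 0.12 to 0.208 without T1-non-binding mouse 1. Pmvk had 0.078 without T1-non-binding mouse 2, Mvd had 0.0706 and 0.0557 without T1-binding mouse 1 and 2, and Hmgcs1 had 0.0628 without T1-binding mouse 2. Without a filter on low counts Mvd had 0.0612, with RLE factors Hmgcs1 had 0.0579 against T1-binding cells, and Mvd had 0.0825 with the block on the compared groups alone. Against T1-binding cells Pmvk had 0.0569 to 0.0933 without Ly6G-low mouse 1 or 2 or T1-binding mouse 2, and Mvd had 0.112 and 0.0705 without Ly6G-low mouse 1 and T1-binding mouse 1.

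Hmgcs1 and Fasn were among 9 of the 34 genes called higher in both Ly6G-low comparisons, and Mvd among 3 called lower in both. As examples of these genes, sequences upstream of Hmgcs1, Fasn and Mvd alone are shown. They are the 250 bases before the annotated start, from RefSeq on GRCm38.p6, with matches in capitals to a sterol response element core (TCACNCCAC), a CCAAT box (CCAAT) or a GC box (GGGCGG) on either strand. The reference is of strain C57BL/6J, and the motifs were chosen with these data known. Hmgcs1 is on chr13:119690101-119690350 (+), Fasn on chr11:120824548-120824797 (-) and Mvd on chr8:122443423-122443672 (-).
Hmgcs1: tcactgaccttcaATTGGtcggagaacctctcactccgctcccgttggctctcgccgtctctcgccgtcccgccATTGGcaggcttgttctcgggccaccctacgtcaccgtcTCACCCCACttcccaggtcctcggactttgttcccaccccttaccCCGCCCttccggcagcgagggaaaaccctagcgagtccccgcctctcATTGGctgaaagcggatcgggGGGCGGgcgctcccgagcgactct
Fasn: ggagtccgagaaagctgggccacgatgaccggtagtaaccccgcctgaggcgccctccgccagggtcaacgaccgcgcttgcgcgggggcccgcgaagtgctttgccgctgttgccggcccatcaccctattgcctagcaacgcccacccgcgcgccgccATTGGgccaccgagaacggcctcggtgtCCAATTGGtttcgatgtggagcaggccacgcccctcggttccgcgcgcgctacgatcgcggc
Mvd: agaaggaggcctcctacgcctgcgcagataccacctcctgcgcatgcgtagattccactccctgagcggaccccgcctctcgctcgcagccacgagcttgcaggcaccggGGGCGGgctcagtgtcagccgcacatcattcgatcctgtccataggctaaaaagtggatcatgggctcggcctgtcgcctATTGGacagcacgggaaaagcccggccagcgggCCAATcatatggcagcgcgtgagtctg
Hmgcs1 holds the sterol element core 137 bases before its start, together with 3 CCAAT and 2 GC boxes. Fasn holds 3 CCAAT matches, 2 of them in 1 palindrome read on both strands, and Mvd holds 2 CCAAT boxes and 1 GC box. Windows were given for 27 of the 34 genes, and the other 7 (Fdps, Fdft1, Sqle, Stard4, Scd1, Scd2 and Fads1) have none here. A gene was counted if any of its windows held a match. The CCAAT box was in 21 of 27 (77.8%) and the GC box in 22 of 27 (81.5%), beside 39.5% and 45.8% of protein-coding genes. The sterol core was in 1 of 27 (3.7%), beside 1.2%. A match describes letters in this window and says nothing of binding.

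The SREBP regulators did not move as a group. Of 5 genes, none was higher and 1 lower against Ly6G-high T1-binding cells, beside 18.8% and 24.3% of all genes. Against T1-non-binding cells, 1 was higher and 1 lower, beside 16.1% and 23.8%. Summed levels were 310 and 312 CPM in Ly6G-low cells and 292 to 345 CPM in the others. Srebf2, the SREBP that mainly drives cholesterol genes, was at 130 and 131 CPM in Ly6G-low cells and 126 to 147 CPM in the Ly6G-high libraries. Srebf1, whose products mainly drive fatty acid genes, was at 88.0 and 82.9 CPM against 63.7 to 70.0 CPM; both Ly6G-low libraries lay above the rest, but it was not called (edgeR adjusted p = 0.111 and 0.0841). Scap, the SREBP escort, was at 48.4 and 45.1 CPM against 29.4 and 37.4 CPM in T1-binding cells, where it was not called, and 29.3 and 31.1 CPM in T1-non-binding cells (1.55-fold higher, log2 0.63 ± 0.18 SE, edgeR adjusted p = 0.0311). That call was lost without either Ly6G-low library (edgeR adjusted p = 0.165 and 0.128), without T1-non-binding mouse 1 (0.116), with the compared groups alone (0.051) and with the mouse as a block on those groups (0.109).

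Insig1, which retains SCAP and is itself raised by SREBP, was lower in Ly6G-low cells, opposite to most of the synthesis genes called. It was at 29.9 and 38.5 CPM against 59.1 and 55.4 CPM in T1-binding cells (1.67-fold lower, log2 -0.74 ± 0.25 SE, edgeR adjusted p = 0.049). Against T1-non-binding cells, at 58.8 and 37.3 CPM, the groups overlapped and it was not called. The call lay just under the threshold and was lost with library totals (log2 -0.16), without Ly6G-low mouse 1 or 2 (edgeR adjusted p = 0.245 and 0.0599) and without T1-binding mouse 1 (edgeR adjusted p = 0.173).

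Stard4, a carrier that moves cholesterol between membranes and is known as a SREBP target, was lowest in Ly6G-low and highest in T1-non-binding cells. It was at 13.8 and 14.7 CPM in Ly6G-low, 21.6 and 19.0 CPM in Ly6G-high T1-binding and 45.6 and 30.7 CPM in T1-non-binding cells, and no 2 groups overlapped. It was 2.67-fold lower in Ly6G-low than in T1-non-binding cells (log2 -1.42 ± 0.23 SE, edgeR adjusted p = 0.00499) and was not called against T1-binding cells (edgeR adjusted p = 0.0993). With library totals the former call was lost (log2 -0.55, edgeR adjusted p = 0.0629).

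The 3 genes supplying acetyl-CoA and NADPH went in different directions. Me1, the cytosolic malic enzyme that yields NADPH for chain synthesis, was at 57.8 and 50.5 CPM in Ly6G-low, 17.1 and 23.7 CPM in Ly6G-high T1-binding and 25.9 and 28.4 CPM in T1-non-binding cells. It was 2.66-fold (log2 1.41 ± 0.21 SE, edgeR adjusted p = 0.00392) and 1.99-fold higher in Ly6G-low cells (log2 1.00 ± 0.20 SE, edgeR adjusted p = 0.0119). Against T1-non-binding cells it was not called without Ly6G-low mouse 1 (edgeR adjusted p = 0.083) or T1-non-binding mouse 1 (0.0527).

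Acss2, which makes acetyl-CoA from acetate, had the largest change of all 34 genes. It was at 3.31 and 5.40 CPM in Ly6G-low, 10.3 and 9.76 CPM in Ly6G-high T1-binding and 21.5 and 20.5 CPM in T1-non-binding cells, so that the groups formed 3 separate steps. It was 2.30-fold lower in Ly6G-low than in T1-binding cells (log2 -1.20 ± 0.26 SE, edgeR adjusted p = 0.0115) and 4.81-fold lower than in T1-non-binding cells (log2 -2.27 ± 0.26 SE, edgeR adjusted p = 0.00187). The first call was lost with library totals (log2 -0.62, edgeR adjusted p = 0.134) and without Ly6G-low mouse 1 or T1-binding mouse 1 (edgeR adjusted p = 0.0659 and 0.0528). The annotation places part of Acss2 over Gss, which was at 30.2 and 27.5 CPM in Ly6G-low, 17.6 and 22.8 CPM in T1-binding and 29.1 and 29.8 CPM in T1-non-binding libraries and so did not follow the steps of Acss2.

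Acly, ATP citrate lyase, which makes cytosolic acetyl-CoA from citrate, was not called. It was at 244 and 267 CPM in Ly6G-low, 428 and 338 CPM in T1-binding and 340 and 255 CPM in T1-non-binding Ly6G-high cells. Its difference from T1-binding cells (log2 -0.59 ± 0.25 SE, edgeR adjusted p = 0.0907) was lower with TMM scaling and turned with library totals (log2 0.01), and it was called by DESeq2 (adjusted p = 0.0277) and with the compared groups alone (edgeR adjusted p = 0.0486).

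**Figure D3:**
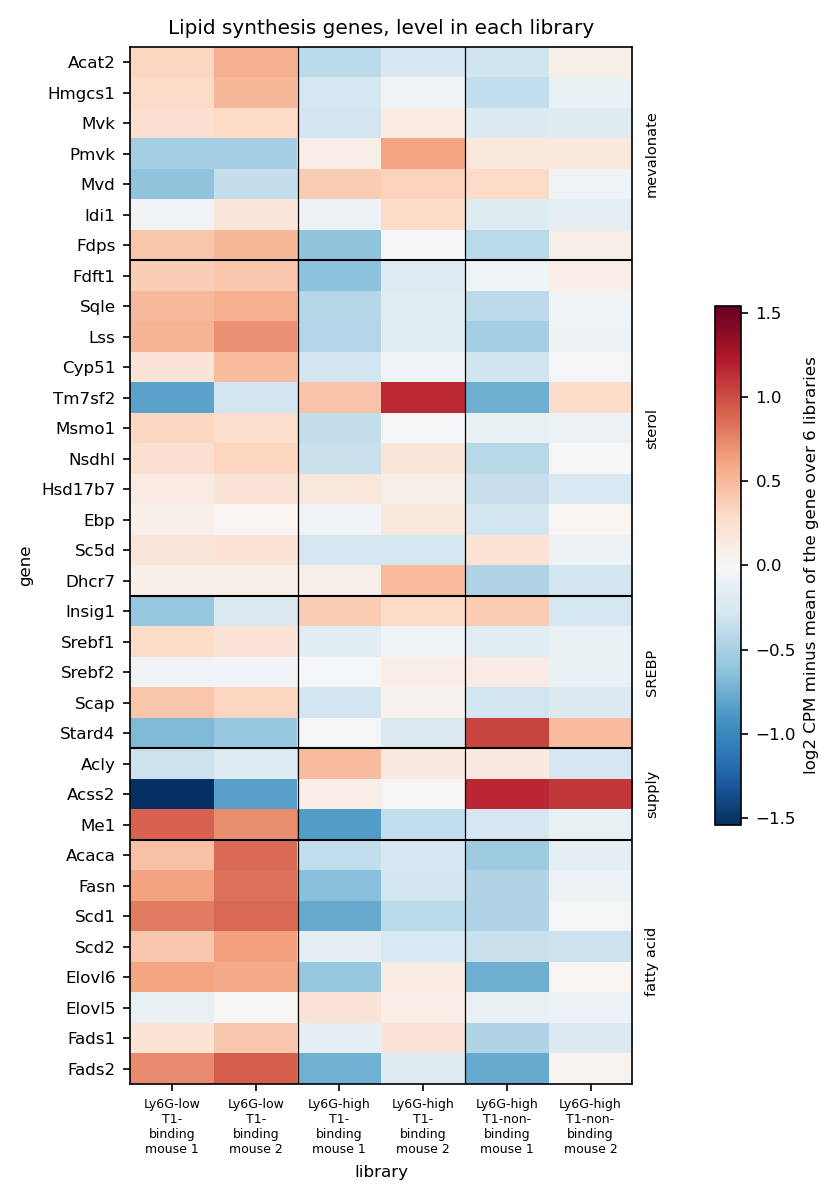
Log2 CPM of each of the 34 genes (rows, in pathway order) minus that gene's mean over 6 libraries, for each library (columns); red is above and blue below the mean. The Ly6G-low columns are red in most sterol and fatty acid rows. They are blue for Pmvk, Mvd, Tm7sf2, Insig1, Stard4, Acly and Acss2, deepest for Acss2 and faint for Acly.

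Binding of the T1 aptamer among Ly6G-high cells was not accompanied by a called difference in any of the 34 genes. No gene of 13883 was called in this comparison (0%), where the lowest edgeR adjusted p was 0.385. At an unadjusted p below 0.05 there were 1623 genes (11.7%), 3 of them among the 34. DESeq2 called 173 of the 9845 genes to which it gave an adjusted p (1.76%). The median log2 fold change of the 34 was 0.06, beside -0.05 over all genes, and CPM did not overlap between the groups for 13 of the 34, beside 39.2% of all genes. The 3 genes were Dhcr7, Stard4 and Acss2. Acss2 was 2.09-fold lower (log2 -1.06 ± 0.25 SE) and Stard4 1.87-fold lower (log2 -0.90 ± 0.22 SE) in T1-binding cells, each with an edgeR adjusted p of 0.385, and DESeq2 called both (adjusted p = 0.0327 and 0.0491). Dhcr7 was at 17.9 and 23.6 CPM in T1-binding and 12.2 and 13.8 CPM in T1-non-binding cells, 1.59-fold higher (log2 0.67 ± 0.20 SE, edgeR adjusted p = 0.385).

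The libraries of these groups come in pairs from the same mice, and a fit of the 4 Ly6G-high libraries with the mouse as a block gave other calls. It called 11 of the 34 genes, 6 higher and 5 lower in T1-binding cells, beside 13.6% higher and 14.6% lower of 13419 genes, from 1 residual degree of freedom. The fit of all 6 libraries with the same block called none of the 34. In the 4-library fit Acss2 (log2 -1.02, edgeR adjusted p = 2.18e-06), Stard4 (log2 -0.83, edgeR adjusted p = 2.41e-06), Fdft1, Me1 and Scd1 were lower, and Tm7sf2, Dhcr7 (log2 0.72, edgeR adjusted p = 0.000227), Insig1, Acly, Elovl5 and Fads1 were higher. Macrophage markers summed to 6508 and 7057 CPM in T1-binding against 3607 and 3280 CPM in T1-non-binding cells, and neutrophil markers to 15750 and 10960 CPM against 41020 and 26550 CPM; their part in these differences was not tested.

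**Figure D4:**
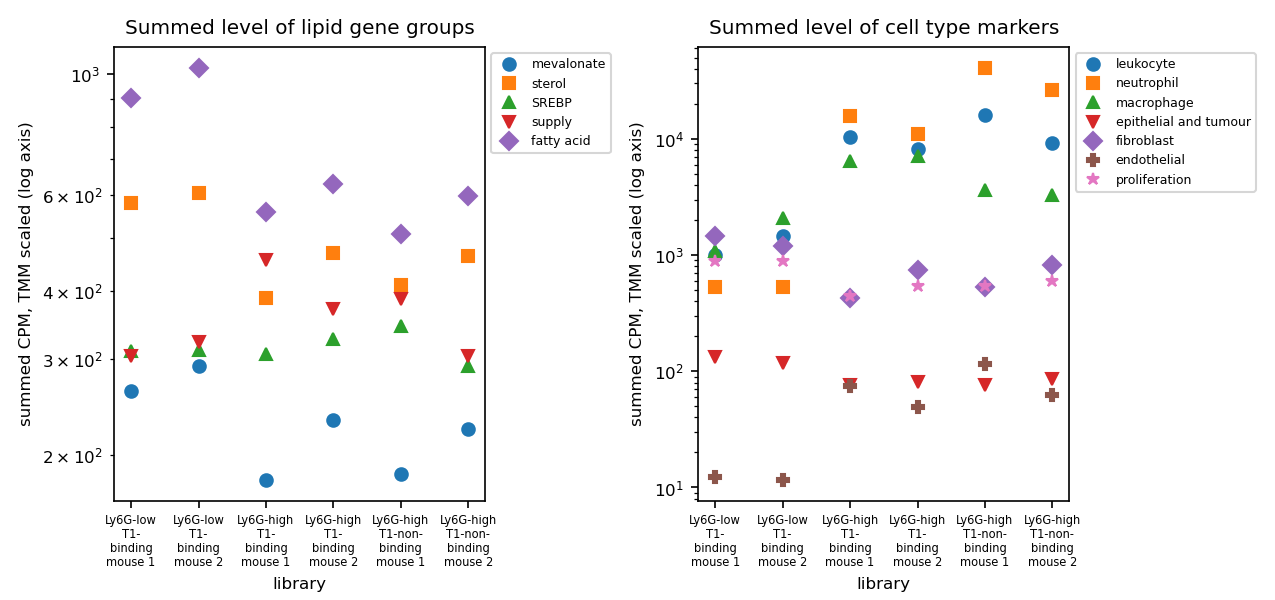
Summed CPM (log axis) of the 5 groups of lipid genes (left) and of marker lists for cell types (right) in each of the 6 libraries. Fatty acid genes reached 905 and 1029 CPM in the Ly6G-low libraries and 509 to 628 CPM in the others, while leukocyte markers were at 1002 to 1450 CPM against 8132 to 15930 CPM.

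Per gene length, the highest of these transcripts were the same 3 genes in each group, in different order. In the authors' FPKM, which divides by library total and gene length without composition scaling, Fdps led in Ly6G-low cells (mean 127, then Fads1 at 83.2 and Acly at 80.2). Acly led in Ly6G-high T1-binding cells at 79.9, with Fdps at 51.9 and Fads1 at 46.3, and in T1-non-binding cells at 51.5, with Fdps at 48.7 and Fads1 at 30.2. The lowest were Acss2 and Tm7sf2, each at 1.68, in Ly6G-low cells and Elovl6, at 1.23 and 0.98, in the Ly6G-high groups.

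Other genes of the same pathways were counted from lists of related enzymes and regulators. On the sterol side 18 of 20 were tested; 2 were higher and 3 lower in Ly6G-low than in T1-binding cells, and 2 higher and 4 lower than in T1-non-binding cells, beside the 18.8% higher and 24.3% lower, and 16.1% and 23.8%, of all genes. Mbtps1, the protease that first cuts SREBP in the Golgi, was at 177 and 170 CPM in Ly6G-low cells against 89.3 to 107 CPM in the other 4 libraries (1.75-fold, edgeR adjusted p = 0.0126, and 1.77-fold, edgeR adjusted p = 0.0142). The lysosomal cholesterol exporters Npc1 and Npc2 were 2.19-fold and 2.21-fold lower than in T1-binding cells (edgeR adjusted p = 0.0155 and 0.00698), and Por, the electron donor of Cyp51 and Sqle, was 2.65-fold lower than in T1-non-binding cells (edgeR adjusted p = 0.0131). Erlin1, an endoplasmic reticulum scaffold, was 1.48-fold higher than in T1-non-binding cells (edgeR adjusted p = 0.0332).

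On the fatty acid side 21 of 27 listed genes were tested, of which 4 were higher and 5 lower against T1-binding cells and 5 higher and 4 lower against T1-non-binding cells, beside the same shares of all genes (18.8% and 24.3%, 16.1% and 23.8%). Fads3, a neighbour and relative of Fads1 and Fads2, was at 31.4 and 28.8 CPM in Ly6G-low cells against 10.2 to 15.7 CPM in the others (2.20-fold, edgeR adjusted p = 0.00926, and 2.31-fold, edgeR adjusted p = 0.00923). Acacb, the mitochondrial carboxylase, was higher at 2.94 and 2.95 CPM against 1.00 to 1.44 CPM (2.40-fold, edgeR adjusted p = 0.0229, and 2.30-fold, edgeR adjusted p = 0.0315). Gpam, which starts glycerolipid assembly, was 1.76-fold and 2.03-fold higher (edgeR adjusted p = 0.0275 and 0.0167).

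The lower calls on this list included Dgat2, Dgat1, Acsl1 and Acsl4, while Lpin1 of glycerolipid assembly was 1.73-fold higher than in T1-non-binding cells (edgeR adjusted p = 0.0379) and the fatty acid activators Acsl3 and Acsl5 were not called in either comparison. Dgat2, which makes triglyceride, was at 7.41 and 5.46 CPM in Ly6G-low, 154 and 89.8 CPM in T1-binding and 361 and 192 CPM in T1-non-binding Ly6G-high cells, 18.9-fold (edgeR adjusted p = 0.00291) and 42.9-fold lower (edgeR adjusted p = 0.000979). Acsl1, which activates fatty acids with CoA, was 2.84-fold (edgeR adjusted p = 0.00895) and 4.23-fold lower (edgeR adjusted p = 0.00376). Elovl2 had no counts in the Ly6G-low libraries and was at 0.453 to 1.42 CPM in the others, from 11 to 26 counts per library. None of these 39 tested genes was called between the Ly6G-high groups, where 0 of all 13883 genes were called (0%).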

How the data were processed

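Tumour myeloid fractions were profiled by RNA sequencing, with 6 libraries in 3 groups of 2. Raw counts per gene and FPKM values were deposited for each library, per the file headers. TopHat, STAR 2.5, HTSeq 0.6.1 and mm10 are named in the submitters' processing notes, with no role or order; strandedness, annotation release and the treatment of reads shared by overlapping or paralogous genes are not given in the sources used here. Overlaps were read from GENCODE M21 by gene ID: 12 of the 34 genes are overlapped by another protein-coding or antisense gene, so their counts are uncertain to that extent.

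Counts were fitted with edgeR 4.0.16 (R 4.3.3, limma 3.58.1) by glmQLFit (robust) and glmQLFTest. The fit used TMM factors, filterByExpr and group as the only term, over all 6 libraries (3 residual degrees of freedom). It was also run on simulated counts that lacked the composition and mouse differences of these libraries, so that run does not test the fit under them. The p-values were adjusted over 13883 genes with a threshold of 0.05. FPKM was used to order genes, never to test. Library totals were 23595976 to 28045025 counts. A floor of 3 counts is 0.107 to 0.127 CPM by library total, before TMM scaling, and covers counting error only.

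Alternatives were RLE factors, library totals, no filter on low counts, at least 50 counts in 2 libraries, DESeq2 1.42.0, the compared groups alone, the mouse as a block, and leaving out each library. Same-numbered libraries come from the same mouse, per the labels. Their deviations from group means correlated at 0.71 between the Ly6G-high groups, and at -0.13 and -0.05 between Ly6G-low and T1-non-binding and T1-binding cells. Replicates of a group differed by more than counting noise (chi-square per degree of freedom of 22.9 to 90.1).

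Named are the genes with the largest and smallest changes of each role group among those called, those running against their group, all other listed genes by count or level, and up to 3 called genes per list and direction of other pathway genes. Those beyond that rule were chosen after their values were seen. Some genes that the rule would name are not reported here. The members and all lists were chosen with earlier results of these data known.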

Additional observations from a re-analysis of the deposited data

How the results depend on the processing

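Over the settings other than leaving out a library, 15 to 22 of the 34 genes were called between Ly6G-low and Ly6G-high T1-binding cells (16 in the reported fit) and 10 to 29 between Ly6G-low and Ly6G-high T1-non-binding cells (15 reported), with 29 coming from library totals. Leaving out a library gave 3 to 21 and 3 to 18. Between the Ly6G-high groups 0 were called in the reported fit and on leaving out any library, 2 by DESeq2 and 11 with the mouse as a replicate block on those groups alone. Over all genes that comparison had 0 calls, 71 without a filter, 173 by DESeq2 and 3778 with the block on 4 libraries; leaving out a library took the calls from 5971 to between 1972 and 6731, and from 5528 to between 1527 and 6282, and library totals gave 9145 in place of 5528. The median of the 34 between the Ly6G-high groups, 0.06, lay between -0.048 and 0.156 on leaving out a library, and turned to -0.048 without T1-non-binding mouse 1 and to -0.022 without T1-binding mouse 2; with library totals it was 0.301, beside 0.198 over all genes. With library totals the genes with a positive difference went from 20, 22 and 26 to 27, 29 and 32 of 34 in the Ly6G-high, T1-binding and T1-non-binding comparisons. Among those with an unadjusted p below 0.05 in the reported fit, the log2 differences of Acly (0.006, T1-binding), Pmvk (0.15) and Mvd (0.237, both T1-non-binding) turned positive; the cause was not tested. With the mouse as a replicate block in the fit of 6 libraries, 0, 19 and 19 genes were called, and on the compared groups alone 11, 17 and 10. Of the called single-gene differences, 327 alternatives kept direction and call, 105 kept direction but lost the call and 2 turned. With 2 libraries a group, precision is limited by the spread between mice; leaving out 1 leaves a lone library assumed to vary like the other groups.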

Other observations

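Genes of LXR signalling and cholesterol export were lower in Ly6G-low cells. Of 10 listed genes, 6 were called lower and none higher against Ly6G-high T1-binding cells, and 5 lower and none higher against T1-non-binding cells, beside 24.3% and 23.8% of all genes called lower. Abcg1, a cholesterol exporter, was at 8.02 and 11.9 CPM in Ly6G-low, 94.1 and 64.7 CPM in T1-binding and 142 and 85.2 CPM in T1-non-binding cells, 7.98-fold (edgeR adjusted p = 0.00316) and 11.4-fold lower (edgeR adjusted p = 0.00149). Nr1h3, which encodes LXR alpha, was at 1.49 and 1.01 CPM against 7.24 and 5.80 CPM (5.21-fold lower, edgeR adjusted p = 0.00342) and 4.92 and 3.81 CPM (3.47-fold lower, edgeR adjusted p = 0.00726). Cyp27a1, a sterol hydroxylase, was 5.33-fold lower than in T1-binding cells (edgeR adjusted p = 0.0078), and Soat1, which esterifies cholesterol, was 3.40-fold lower than in T1-non-binding cells (edgeR adjusted p = 0.0128). Macrophage markers, at 1093 and 2097 CPM in Ly6G-low against 3280 to 7057 CPM in the other libraries, moved the same way; their part in these differences was not tested.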
